A study of Mus musculus with 8 samples.

Results

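The CC chemokines described here are 10 genes, Ccl2, Ccl3, Ccl4, Ccl5, Ccl6, Ccl7, Ccl8, Ccl9, Ccl12 and Ccl24, found by symbol and joined by gene ID among 16547 genes with values in every library. Their mRNA was measured by RNA sequencing in 8 libraries of mouse heart tissue after ischemia-reperfusion, in which blood flow to heart muscle is stopped and then restored. The 4 groups of 2 libraries each received PBS, a buffer without nanocage, or the nanocage iFTn-M4, iFTn-R4 or iFTn-MR4. Each was given in 2 doses on alternate days, the nanocages at 2.5 mg of protein per kg, and RNA was taken after 3 days. All groups, PBS included, had ischemia-reperfusion, and uninjured heart was not analysed here. The series title describes ionizable protein nanocages, genetically engineered, that act as nanozymes against superoxide inside cells. What the letters M, R and MR stand for is not given in the sources used here, nor are the strain, sex and age of the mice, the order of dosing and injury, or whether the libraries of a group came from separate animals. The p-values therefore measure the spread between these libraries, which may be technical.

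CC chemokines are small secreted proteins, named for adjacent cysteines near the amino end, that bind to glycosaminoglycans on cell surfaces and guide leukocytes by way of G protein-coupled receptors called Ccr. In the injured heart they are made by macrophages, endothelial cells, fibroblasts and other cells, and the ligands of Ccr2 draw in inflammatory monocytes from blood. In whole tissue, fewer cells that make a chemokine and less of its RNA per cell cannot be told apart.

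In GRCm38.p6, by the RefSeq gene table, 9 of the 10 genes lie in clusters on chromosome 11. Ccl2, Ccl7, Ccl12 and Ccl8 follow each other within 81.2 kb at chr11:82035577-82116799, and Ccl5, Ccl9, Ccl6, Ccl3 and Ccl4 lie within 138.9 kb at chr11:83525778-83664683. Ccl24 lies alone at chr5:135569935-135573123. All are annotated as protein coding. The annotated span of Ccl4 overlaps that of Ccl3, and whether counting used strand is not given in the sources used here, so reads in the shared stretch may have been assigned to either gene.

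Library totals were 13618588 to 15729385 expected counts. Cardiomyocyte markers (Myh6, Tnnt2, Tnni3, Actc1, Myl2 and Ryr2) summed to between 27537 and 53742 CPM (counts scaled to a common library size) in every library, so that the defining markers of heart muscle were present. The PBS libraries stand in a table of their own, so that PBS and any difference in how the tables were made cannot be told apart. Against PBS, the log2 fold change of all tested genes increased with effective transcript length. The Spearman correlation across 13953 genes, which are not independent replicates, was 0.39 (iFTn-M4), 0.497 (iFTn-R4) and 0.354 (iFTn-MR4). This touches the CC chemokines, since 8 of the 10 members lie at or below percentile 6.4 of effective length. Values against PBS are therefore given also with a length offset, a term per library that removes this trend.

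At the level of the family, transcripts of CC chemokines were most abundant after PBS and least after iFTn-MR4. The deposited TPM, a level per transcript length, summed over the 10 members to 1319 and 1474 in the PBS libraries, 979 and 970 after iFTn-R4, 597 and 451 after iFTn-M4, and 348 and 411 after iFTn-MR4. The 4 groups did not overlap in this sum, which is scaled within each library. For 7 members (Ccl2, Ccl3, Ccl4, Ccl6, Ccl7, Ccl9 and Ccl12) the mean CPM fell in the order PBS, iFTn-R4, iFTn-M4, iFTn-MR4, an order found in 17.3% of all tested genes. Ccl5, Ccl8 and Ccl24 departed from it.

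**Figure D1:**
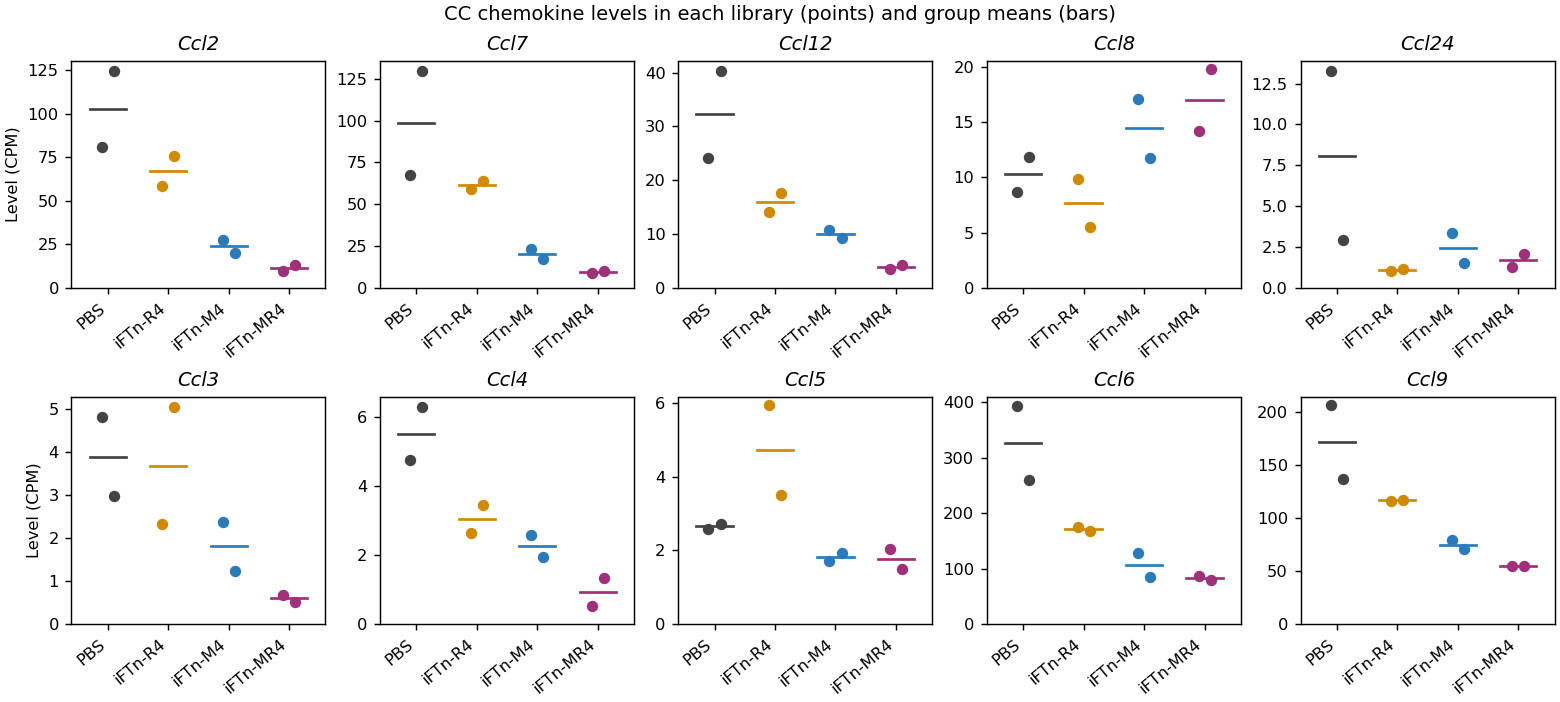
Level of each CC chemokine in CPM (vertical axis, from 0, a scale of its own for each gene) in the 8 libraries, as points by group, with a bar at each group mean. Ccl2, Ccl7 and Ccl12 run from 81.2 to 124.5, 67.5 to 129.5 and 24.2 to 40.3 CPM after PBS down to 13.2, 10.1 and 4.31 CPM or less after iFTn-MR4, whereas Ccl8 is highest in an iFTn-MR4 library, at 19.8 CPM.

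Of the 10 members, 7 fell and 0 rose after iFTn-M4 against PBS by edgeR's quasi-likelihood test at a Benjamini-Hochberg adjusted p under 0.05, while 21.4% of all tested genes fell and 19.8% rose. After iFTn-R4, 4 fell and 0 rose, beside 15.4% and 13.9% of all genes. After iFTn-MR4, 8 fell and 0 rose, beside 26.3% and 24.6%. Without adjustment for multiple tests, 0, 1 and 1 members were higher at p under 0.05 after iFTn-M4, iFTn-R4 and iFTn-MR4, and DESeq2 called 0, 0 and 1 higher. No share of all tested genes is given here for these 2 settings, and the shares above belong to the adjusted edgeR calls. The median log2 fold change of the members was -1.45, -0.65 and -2.40 in the same order, against 0.00 over all tested genes in each comparison. With the length offset, 6, 3 and 8 members fell and 0, 1 and 1 rose, beside 17.6%, 7.92% and 23.8% of all genes that fell and 15.1%, 6.05% and 20.7% that rose. The 3 comparisons share the PBS libraries. Both nanocage libraries lay below both PBS libraries for 8, 7 and 9 members, where the share among all genes was 37.3%, 32.8% and 39.9%, and above both for 0, 1 and 1, where it was 37.3%, 31.8% and 39.3%.

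Among the nanocages, the response was compared in 3 pairs at the same dose and time. After iFTn-MR4 against iFTn-R4, 8 members fell and 1 rose, beside 14.6% and 12.6% of all genes, with a median log2 fold change of -1.56. After iFTn-R4 against iFTn-M4, 4 rose and 0 fell, beside 3.43% and 2.5% of all genes, with a median of 0.68. In that pair 1 member was lower at an unadjusted p under 0.05, and DESeq2 called 1 lower. The shares of all genes at these settings are not given here, so that these counts cannot be weighed against them. After iFTn-MR4 against iFTn-M4, 0 of 10 passed by edgeR, beside 0.344% of all genes that fell and 0.0215% that rose. Both iFTn-MR4 libraries lay below both iFTn-M4 libraries for 6 members and above for 0, beside 27.7% and 26.6% of all genes. For iFTn-MR4 against iFTn-R4 the libraries stood apart downward for 8 members and upward for 2, beside 32.6% and 31.5%, and for iFTn-R4 against iFTn-M4 downward for 2 and upward for 7, beside 25.4% and 25%. For iFTn-MR4 against iFTn-M4, 6 members were lower at an unadjusted p under 0.05, for which no share of all genes is given here. DESeq2 called Ccl2 (adjusted p = 0.0474) and Ccl12 (adjusted p = 0.00036) and gave 4 members no adjusted p. Of 13953 genes, DESeq2 called 271 lower and 81 higher. A fit to the libraries of these groups alone called 4, Ccl2, Ccl7, Ccl9 and Ccl12, so that this count depends on the setting. Without PBS replicate 1 or either iFTn-R4 replicate 2 passed, and without PBS replicate 2, 1 passed. The members called in the comparisons between nanocages also depend on single libraries. Without iFTn-M4 replicate 2, 0 members passed for iFTn-R4 against iFTn-M4, 2 passed without iFTn-M4 replicate 1 or without either iFTn-MR4 replicate, and without iFTn-MR4 replicate 2, 5 passed for iFTn-MR4 against iFTn-R4.

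**Figure D2:**
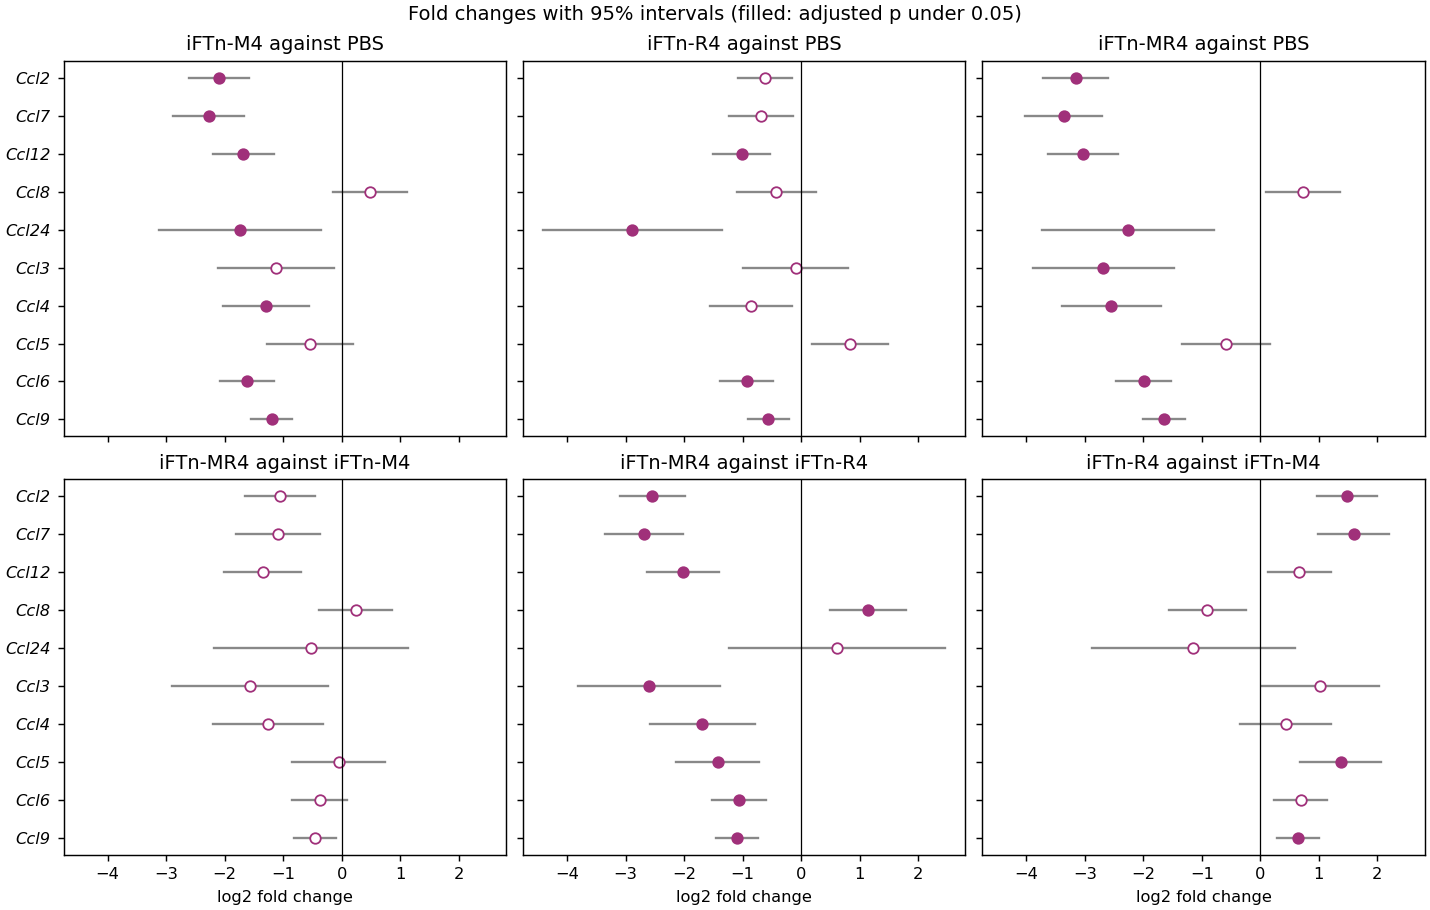
Log2 fold change of each CC chemokine (horizontal axis) in the 6 comparisons, with lines for the 95% interval from edgeR and filled points where the adjusted p is under 0.05. Ccl2, Ccl7 and Ccl12 reach -3.16, -3.36 and -3.03 for iFTn-MR4 against PBS, Ccl8 is the member called higher for iFTn-MR4 against iFTn-R4 at 1.15, and no point is filled for iFTn-MR4 against iFTn-M4.

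The ligands of Ccr2 (Ccl2, Ccl7 and Ccl12) had the 3 lowest log2 fold changes of the family after iFTn-MR4 against PBS. Their intervals there overlapped those of Ccl3 (-3.89 to -1.48) and Ccl4 (-3.40 to -1.70), among others. The order differed after the other nanocages. After iFTn-M4, Ccl24 (-1.74) lay below Ccl12 (-1.68), and after iFTn-R4 the lowest were Ccl24 (-2.88), Ccl12 (-1.02) and Ccl6 (-0.93). Ccl2 (gene ID 20296), the principal attractant of monocytes, measured 81.2 and 124.5 CPM in the PBS libraries, 58.5 and 75.6 after iFTn-R4, 27.6 and 20.3 after iFTn-M4, and 9.83 and 13.2 after iFTn-MR4. The 4 groups did not overlap. Against PBS, Ccl2 was 8.91-fold lower after iFTn-MR4 (log2 fold change -3.16 ± 0.25 SE, edgeR adjusted p = 1.718e-05, n = 2 per group), and -2.86 ± 0.23 with the length offset. It was 5.81-fold lower after iFTn-MR4 than after iFTn-R4 (-2.54 ± 0.25, adjusted p = 0.00035) and higher after iFTn-R4 than after iFTn-M4 (1.48 ± 0.23, adjusted p = 0.0081). The last call was lost without iFTn-M4 replicate 2 (1.28, adjusted p = 0.0910). For iFTn-R4 against PBS the difference, with an interval from -1.09 to -0.15, missed the threshold (adjusted p = 0.0513). With the length offset it was -0.30 (adjusted p = 0.333), and with 1 library left out it ranged from -0.89, without PBS replicate 1, to -0.28. The difference passed with no low-count filter (-0.62, edgeR adjusted p = 0.0456) and with the replicate number as a block (-0.61, adjusted p = 0.0306). For iFTn-MR4 against iFTn-M4 it was -1.05 ± 0.27 (adjusted p = 0.108), and it passed without either iFTn-R4 replicate (adjusted p = 0.0477 and 0.0457).

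Ccl7 (gene ID 20306), a second Ccr2 ligand that lies next to Ccl2, measured 67.5 and 129.5 CPM after PBS, 59.3 and 63.8 after iFTn-R4, 23.5 and 17.2 after iFTn-M4, and 8.995 and 10.1 after iFTn-MR4. Again no groups overlapped, and the PBS libraries differed 1.92-fold from each other. Ccl7 was 10.3-fold lower after iFTn-MR4 than after PBS (log2 fold change -3.36 ± 0.30, edgeR adjusted p = 2.949e-05; -3.06 with the length offset). It also fell after iFTn-MR4 against iFTn-R4 (-2.69 ± 0.30, adjusted p = 0.00046) and rose after iFTn-R4 against iFTn-M4 (1.60 ± 0.27, adjusted p = 0.0107). Without iFTn-M4 replicate 2 the latter was 1.39 with an adjusted p of 0.122. For iFTn-R4 against PBS, Ccl7 did not pass (-0.68 ± 0.24, adjusted p = 0.0625), nor did it with the length offset (-0.36, adjusted p = 0.332). With 1 library left out, the value without the offset ranged from -1.07, without PBS replicate 1, to -0.14. For iFTn-MR4 against iFTn-M4 it was -1.09 ± 0.32 (adjusted p = 0.142), and 0.0491 without PBS replicate 1.

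Ccl12 (gene ID 20293), a mouse ligand of Ccr2 with no direct human counterpart, measured 24.2 and 40.3 CPM after PBS, 14.2 and 17.7 after iFTn-R4, 10.8 and 9.31 after iFTn-M4, and 3.55 and 4.31 after iFTn-MR4. As with Ccl2 and Ccl7, the groups stood apart and the second PBS library was the higher, here 1.67-fold. Ccl12 fell in all 3 comparisons against PBS, with log2 fold changes of -3.03 ± 0.27 after iFTn-MR4 (edgeR adjusted p = 2.834e-05), -1.68 ± 0.23 after iFTn-M4 (adjusted p = 0.00052) and -1.02 ± 0.22 after iFTn-R4 (adjusted p = 0.0087). Without PBS replicate 2 the iFTn-R4 value was -0.60 and missed the threshold (adjusted p = 0.0573). Ccl12 was 4.05-fold lower after iFTn-MR4 than after iFTn-R4 (-2.02 ± 0.28, adjusted p = 0.0012). Against iFTn-M4 the iFTn-MR4 value was -1.35 ± 0.29 with an adjusted p of 0.0835, and it passed without either PBS replicate (0.0456 and 0.0485) or either iFTn-R4 replicate (0.0354 and 0.0338). For iFTn-R4 against iFTn-M4 it was 0.66 ± 0.24 (adjusted p = 0.138), and 0.0499 without PBS replicate 1.

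Ccl8 (gene ID 20307), the neighbour of Ccl12 and in mouse a ligand of Ccr8, did not follow the Ccr2 ligands of its cluster. It measured 8.72 and 11.9 CPM after PBS, 9.82 and 5.51 after iFTn-R4, 17.1 and 11.8 after iFTn-M4, and 14.2 and 19.8 after iFTn-MR4. Both iFTn-MR4 libraries lay above both PBS and both iFTn-R4 libraries and overlapped those of iFTn-M4. Ccl8 rose after iFTn-MR4 against iFTn-R4 (log2 fold change 1.15 ± 0.29, edgeR adjusted p = 0.0177), a call lost without iFTn-R4 replicate 2 (0.80, adjusted p = 0.0537) or iFTn-MR4 replicate 2 (0.88, adjusted p = 0.136). Against PBS it was 0.73 ± 0.28 after iFTn-MR4 (adjusted p = 0.0556), which passed with the length offset (0.98 ± 0.29, adjusted p = 0.0217), by DESeq2 (adjusted p = 0.0282), in a fit to these groups alone (adjusted p = 0.0104) and without either iFTn-R4 replicate (adjusted p = 0.0201 for each). After iFTn-M4 and iFTn-R4 its intervals against PBS ran from -0.15 to 1.12 and from -1.09 to 0.25. For iFTn-R4 against iFTn-M4 the value was -0.91 ± 0.29 (adjusted p = 0.105). DESeq2 called it (adjusted p = 0.0297), as did the fit without iFTn-R4 replicate 1 (-1.39, adjusted p = 0.0288).

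The promoters of Ccl12 and Ccl8 are shown because these neighbouring genes had values of opposite sign after iFTn-MR4. Both are the 250 bases before the RefSeq start in GRCm38.p6, plus strand, read 5′ to 3′, Ccl12 at chr11:82101595-82101844 and Ccl8 at chr11:82114935-82115184, with a TATAAA match in capitals.
Ccl12: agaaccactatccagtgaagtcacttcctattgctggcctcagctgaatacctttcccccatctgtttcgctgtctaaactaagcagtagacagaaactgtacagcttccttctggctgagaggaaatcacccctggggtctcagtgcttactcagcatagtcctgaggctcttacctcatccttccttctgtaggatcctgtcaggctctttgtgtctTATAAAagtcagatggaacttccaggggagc
Ccl8: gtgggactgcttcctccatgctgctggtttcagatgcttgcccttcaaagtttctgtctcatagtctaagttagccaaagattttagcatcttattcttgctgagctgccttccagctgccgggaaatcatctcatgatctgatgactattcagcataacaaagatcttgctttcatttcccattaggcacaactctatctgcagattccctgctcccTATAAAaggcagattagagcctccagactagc
Promoters were available for 5 of the 10 members (Ccl3, Ccl6, Ccl8, Ccl9 and Ccl12). The aligned Ccl12 and Ccl8 stretches were identical at 57.5% of columns, the highest of the 10 pairs, which otherwise ranged from 48.1% to 54.2%. The TATAAA match begins 31 bases before the start in Ccl12 and 32 bases before it in Ccl8. In windows that run 50 bases past the start, 7 motifs were searched on both strands, and TATAAA is found in 13.6% of 32544 distinct mouse promoters. Neither promoter held the letters of the NF-kB consensus, of the AP-1 site TGANTCA, of the interferon element (GAAA and GAAA, 2 bases apart), of the STAT sites TTCNNNGAA and its form with 4 middle bases or of the C/EBP site TTGCNNAA in this window. Those motifs occur in 8.49%, 7.79%, 3.45%, 8.33%, 6.98% and 10.8% of promoters.

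Ccl6 and Ccl9, ligands of Ccr1 known from rodents and made by cells of the myeloid line, fell after each nanocage against PBS. Ccl6 (gene ID 20305) measured 393 and 261 CPM after PBS, 175 and 168 after iFTn-R4, 128 and 85.5 after iFTn-M4, and 85.7 and 78.6 after iFTn-MR4. PBS, iFTn-R4 and iFTn-MR4 did not overlap, while the lower iFTn-M4 library lay among the iFTn-MR4 libraries. Its log2 fold change against PBS was -1.99 ± 0.21 after iFTn-MR4 (edgeR adjusted p = 7.27e-05), -1.62 ± 0.21 after iFTn-M4 (adjusted p = 0.00035) and -0.93 ± 0.20 after iFTn-R4 (adjusted p = 0.0089). The iFTn-R4 call was lost with the length offset (-0.69, adjusted p = 0.0517), on log2(TPM + 1) with limma (-0.65, adjusted p = 0.0549) and without PBS replicate 1 (-0.60, adjusted p = 0.0610). Ccl6 also fell after iFTn-MR4 against iFTn-R4 (-1.06 ± 0.21, adjusted p = 0.0057), which without iFTn-MR4 replicate 2 became -1.01 with an adjusted p of 0.0582. For iFTn-R4 against iFTn-M4 it was 0.69 ± 0.20 (adjusted p = 0.0835) and passed without either PBS replicate (0.0480 and 0.0492).

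Ccl9 (gene ID 20308) is the member least touched by transcript length, with an effective length of 2695 bases at percentile 51 of tested genes. It measured 207 and 137 CPM after PBS, 116 and 118 after iFTn-R4, 79.1 and 70.9 after iFTn-M4, and 54.4 and 55.1 after iFTn-MR4. No groups overlapped, and the libraries of each nanocage group lay close together. Its log2 fold change against PBS was -1.65 ± 0.16 after iFTn-MR4 (edgeR adjusted p = 5.106e-05), -1.196 ± 0.158 after iFTn-M4 (adjusted p = 0.00041) and -0.56 ± 0.15 after iFTn-R4 (adjusted p = 0.0244), and -1.60, -1.15 and -0.54 with the length offset. It also fell after iFTn-MR4 against iFTn-R4 (-1.09 ± 0.16, adjusted p = 0.0016). The iFTn-R4 call against PBS was lost without PBS replicate 1 (-0.23, adjusted p = 0.134), without any of the iFTn-R4 and iFTn-MR4 replicates (adjusted p = 0.0549 to 0.0562), in a fit to these groups alone (adjusted p = 0.0815) and on log2(TPM + 1) (-0.26, adjusted p = 0.287). The rise after iFTn-R4 against iFTn-M4 (0.64 ± 0.16, adjusted p = 0.0458) was lost with the length offset (adjusted p = 0.0515) and without any 1 of the 6 nanocage libraries, from 0.0715 without iFTn-R4 replicate 2 to 0.269 without iFTn-M4 replicate 2.

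The Ccl9 promoter is shown because it was the only one of the 5 that held a match to the NF-kB consensus or the AP-1 site. It is the minus strand of chr11:83578637-83578886 (GRCm38.p6, RefSeq), with matches to these motifs and to TATAAA or its reverse complement in capitals.
Ccl9: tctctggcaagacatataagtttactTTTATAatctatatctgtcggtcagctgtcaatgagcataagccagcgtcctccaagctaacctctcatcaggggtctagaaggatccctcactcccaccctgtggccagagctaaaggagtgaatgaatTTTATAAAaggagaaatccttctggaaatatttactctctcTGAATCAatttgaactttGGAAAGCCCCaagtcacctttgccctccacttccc
The NF-kB match, on the other strand, spans bases -35 to -26 from the start and the AP-1 match, read on both strands, bases -53 to -47. TATAAA matches on opposite strands overlap between bases -94 and -87, and another begins at -224. A match is a description of letters and no measure of binding.

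Ccl3, Ccl4 and Ccl5, which attract monocytes and T cells, were measured at lower levels and with wider intervals. Ccl3 (gene ID 20302), a ligand of Ccr1, measured 4.80 and 2.97 CPM after PBS, 2.31 and 5.04 after iFTn-R4, 2.36 and 1.24 after iFTn-M4, and 0.680 and 0.520 after iFTn-MR4. The iFTn-R4 libraries spanned the PBS libraries, and both iFTn-MR4 libraries lay below all others, on 9 and 7 reads. Ccl3 fell after iFTn-MR4 against PBS (log2 fold change -2.68 ± 0.54, edgeR adjusted p = 0.0026) and against iFTn-R4 (-2.59 ± 0.54, adjusted p = 0.0076). The latter call was lost without iFTn-MR4 replicate 1 (-2.81, adjusted p = 0.0533) or 2 (-2.43, adjusted p = 0.0692), and was -1.93 without iFTn-R4 replicate 2. After iFTn-M4 against PBS it was -1.11 ± 0.44 (adjusted p = 0.0689), and passed in a fit to these groups alone (adjusted p = 0.0350) and without either iFTn-R4 replicate (0.0263 and 0.0288). After iFTn-R4 it was -0.09 ± 0.40, with an interval from -0.99 to 0.81.

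Ccl4 (gene ID 20303) measured 4.74 and 6.28 CPM after PBS, 2.63 and 3.45 after iFTn-R4, 2.58 and 1.93 after iFTn-M4, and 0.529 and 1.34 after iFTn-MR4. The groups did not overlap. Ccl4 fell after iFTn-MR4 against PBS (log2 fold change -2.55 ± 0.38, edgeR adjusted p = 0.0005), after iFTn-M4 against PBS (-1.29 ± 0.33, adjusted p = 0.0117) and after iFTn-MR4 against iFTn-R4 (-1.69 ± 0.40, adjusted p = 0.0134). Without iFTn-MR4 replicate 2 the iFTn-MR4 values were -3.35 against PBS and -2.51 against iFTn-R4, and without iFTn-MR4 replicate 1 the latter was -1.19 and not called (adjusted p = 0.0932). The iFTn-M4 call was lost without PBS replicate 2 (-1.07, adjusted p = 0.0792) and without iFTn-M4 replicate 2 (-1.09, adjusted p = 0.0925). After iFTn-R4 against PBS, Ccl4 was -0.86 ± 0.31 (adjusted p = 0.0650).

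Ccl5 (gene ID 20304), made chiefly by T cells, NK cells and macrophages and a ligand of Ccr1 and Ccr3, was highest after iFTn-R4. It measured 2.59 and 2.71 CPM after PBS, 5.94 and 3.52 after iFTn-R4, 1.72 and 1.93 after iFTn-M4, and 2.04 and 1.48 after iFTn-MR4. Both iFTn-R4 libraries lay above all others. Ccl5 fell after iFTn-MR4 against iFTn-R4 (log2 fold change -1.42 ± 0.31, edgeR adjusted p = 0.0098), a call lost without iFTn-R4 replicate 1 (-0.99, adjusted p = 0.0596) or iFTn-MR4 replicate 2 (-1.22, adjusted p = 0.0778). It rose after iFTn-R4 against iFTn-M4 (1.37 ± 0.31, adjusted p = 0.0338), and that call was lost in a fit to these groups alone (adjusted p = 0.0989) and without any 1 library other than iFTn-R4 replicate 2, with values from 0.94 without iFTn-R4 replicate 1 to 1.46 without iFTn-M4 replicate 2 and adjusted p from 0.0522 to 0.177. Against PBS the iFTn-R4 value was 0.84 ± 0.29 (adjusted p = 0.0562), and it passed with the length offset (1.14 ± 0.31, adjusted p = 0.0388), with scaling by library size alone (0.90, adjusted p = 0.0469), on log2(TPM + 1) (0.89, adjusted p = 0.0247) and without iFTn-R4 replicate 2 (1.15, adjusted p = 0.0159). Summed markers of T and NK cells were 8.88 and 3.85 CPM after iFTn-R4 and between 3.73 and 6.62 CPM in the other groups, highest in the library where Ccl5 was highest. Their part in the Ccl5 values was not tested.

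Ccl24 (gene ID 56221), a ligand of Ccr3 that attracts eosinophils, rested on a single PBS library. It measured 13.3 and 2.91 CPM after PBS, 1.06 and 1.13 after iFTn-R4, 3.36 and 1.52 after iFTn-M4, and 1.29 and 2.08 after iFTn-MR4. The first PBS library was 4.56-fold above the second, which lay below the higher iFTn-M4 library. Ccl24 fell after iFTn-M4, iFTn-R4 and iFTn-MR4 against PBS, with log2 fold changes of -1.74 ± 0.62 (edgeR adjusted p = 0.0465), -2.88 ± 0.68 (0.0129) and -2.26 ± 0.65 (0.0166). Without PBS replicate 1 these were -0.26, -1.40 and -0.79 with adjusted p of 0.720, 0.0982 and 0.245, so that none was called. Without PBS replicate 2 they were -2.45, -3.59 and -2.97. The iFTn-MR4 call was also lost without iFTn-MR4 replicate 1 (-1.96, adjusted p = 0.115) or 2 (-2.65, adjusted p = 0.0610). The iFTn-M4 call was lost with the length offset (-1.49, adjusted p = 0.0937), without iFTn-M4 replicate 1 (-2.43, adjusted p = 0.0666) or 2 (-1.27, adjusted p = 0.249), and without either iFTn-MR4 replicate (adjusted p = 0.0700 and 0.0703). Of 5 eosinophil markers, 4 had values and only Siglecf was tested, and their summed level was 3.98 and 1.52 CPM after PBS, 3.44 and 1.72 after iFTn-R4, 1.57 and 1.24 after iFTn-M4, and 0.756 and 0.742 after iFTn-MR4. The first PBS library was the highest in this sum as in Ccl24, and its part in the Ccl24 values was not tested.

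The PBS libraries differed from each other in a way that split the family. Ccl2, Ccl7, Ccl12, Ccl4 and Ccl8 were 1.53-, 1.92-, 1.67-, 1.32- and 1.36-fold higher in the second PBS library. Ccl6, Ccl9, Ccl3 and Ccl24 were 1.51-, 1.51-, 1.61- and 4.56-fold higher in the first, and Ccl5 differed 1.05-fold.

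The values against PBS of the short members moved with the length offset. Effective lengths were 200 bases for Ccl8, 220 for Ccl5, 224 for Ccl12, 401 for Ccl4, 477 for Ccl3, 488 for Ccl7 and 493 for Ccl2, all at or below percentile 3.2 of tested genes, and 723 for Ccl24 and 1123 for Ccl6. For iFTn-R4, where the trend with length was strongest, the offset moved Ccl2 from -0.62 to -0.30, Ccl7 from -0.68 to -0.36, Ccl4 from -0.86 to -0.54 and Ccl12 from -1.02 to -0.72, and Ccl3 from -0.09 to 0.22, which changed its sign. For iFTn-MR4 the Ccr2 ligands stayed at -2.77 or lower with the offset. The offset left the comparisons between nanocages close to their values without it.

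**Figure D3:**
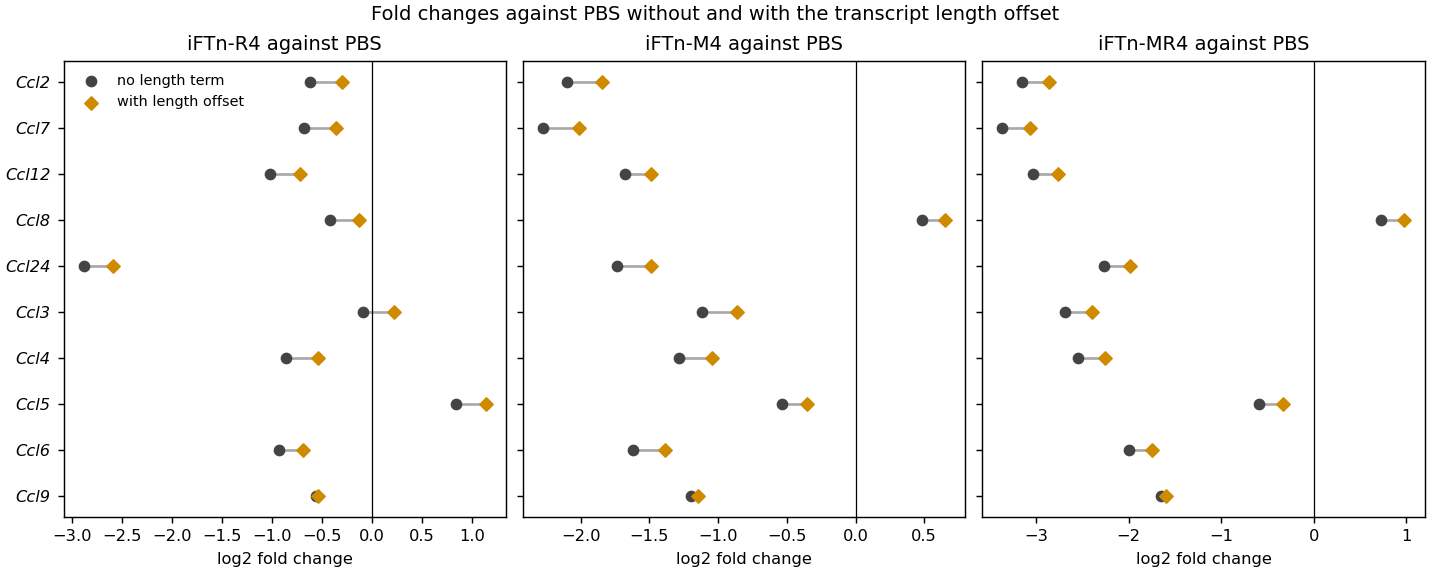
Log2 fold change against PBS (horizontal axis) of each CC chemokine without a length term (dark circles) and with the transcript length offset (orange diamonds), for iFTn-R4, iFTn-M4 and iFTn-MR4. With the offset the points of all members move to the right, for Ccl2 after iFTn-R4 from -0.62 to -0.30, and Ccl9 moves least, from -0.56 to -0.54.

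Per transcript length, the make-up of the family also differed between groups. The PBS values come from a table of their own. After PBS, the mean TPM was 398 ± 128 (SD, n = 2) for Ccl6, 288 ± 77.7 for Ccl2, 278 ± 116 for Ccl7 and 206 ± 70.3 for Ccl12, and each of these overlapped the next in the order of levels. Below them came Ccl9 at 86.5 ± 28.2 and Ccl8 at 74.6 ± 15.5, which overlapped each other but not Ccl12. Ccl4, Ccl5, Ccl24 and Ccl3 followed at 20.8, 17.3, 15.0 and 11.4 TPM, of which Ccl4 and Ccl5 did not overlap. After iFTn-MR4 the order began with Ccl8 at 129 ± 34.4 TPM and Ccl6 at 109 ± 5.83, whose libraries overlapped, and went on with Ccl2 at 35.0 ± 7.81, Ccl9 at 30.3, Ccl7 at 29.3 and Ccl12 at 26.4, whose libraries overlapped from each to the next. Ccl5 at 11.98, Ccl24 at 3.57, Ccl4 at 3.23 and Ccl3 at 1.88 TPM came last.

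The Ccr2 ligands Ccl2, Ccl7 and Ccl12 together made up 44.4% and 65.1% of the summed TPM of the family in the PBS libraries, 51.3% and 58.1% after iFTn-R4, 37.6% and 39.6% after iFTn-M4, and 23.0% and 24.7% after iFTn-MR4. Both iFTn-M4 and both iFTn-MR4 libraries lay below every PBS and iFTn-R4 library. The share of Ccl8 was 4.82% and 5.81% after PBS, 8.34% and 4.31% after iFTn-R4, 20.4% and 19.6% after iFTn-M4, and 29.96% and 37.2% after iFTn-MR4. These are shares of 1 sum, so that a lower share of some members raises that of the rest.

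**Figure D4:**
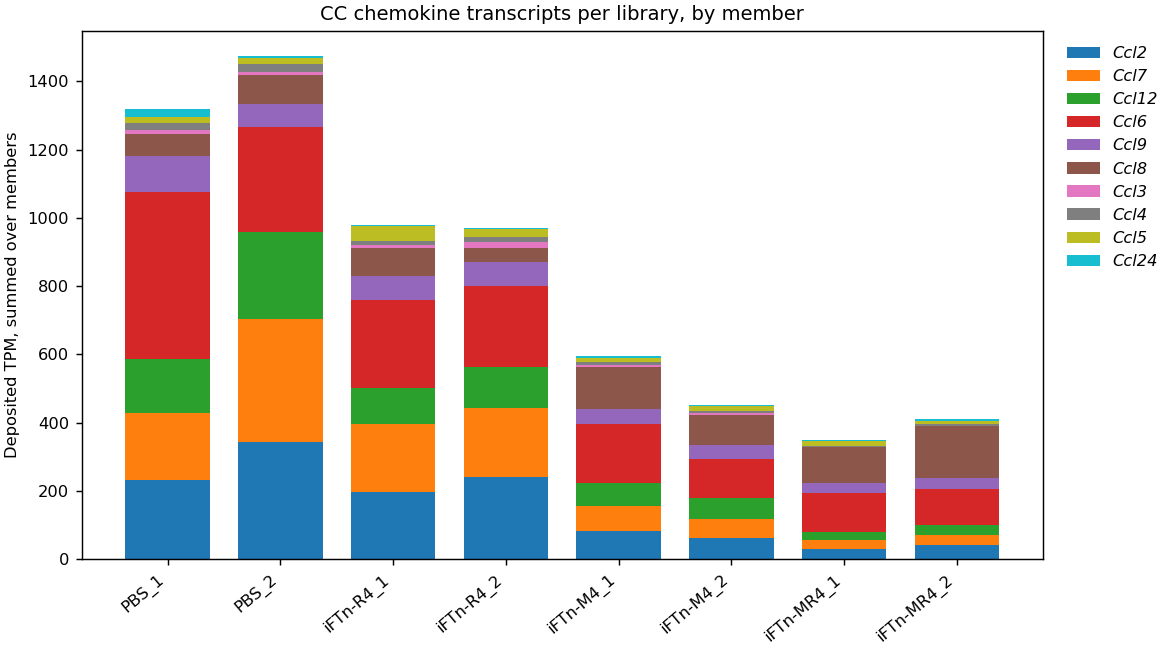
Deposited TPM of the 10 CC chemokines stacked by member (vertical axis, from 0) in each of the 8 libraries. The stacks reach 1319 and 1474 TPM after PBS and 348 and 411 TPM after iFTn-MR4, and the part of Ccl8 is 29.96% and 37.2% of the stack after iFTn-MR4 against 4.82% and 5.81% after PBS.

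Of 10 CC chemokine receptors, 5 were high enough to be tested, among them Ccr1, Ccr2, Ccr3 and Ccr7. Against PBS, 4 fell after iFTn-M4, 3 after iFTn-R4 and 4 after iFTn-MR4, with 0 higher in each by edgeR (Ccr3, the receptor with positive values, had an adjusted p of 0.595 or above) and a median log2 fold change of -0.76, -0.54 and -1.06. Beside this and the lists below, 21.4%, 15.4% and 26.3% of all tested genes fell in these comparisons, and 19.8%, 13.9% and 24.6% rose. With the length offset 17.6%, 7.92% and 23.8% of all genes fell and 15.1%, 6.05% and 20.7% rose. Ccr1, the receptor of Ccl3, Ccl5, Ccl6 and Ccl9 on monocytes and neutrophils, measured 59.3 and 53.4 CPM after PBS, 43.1 and 34.3 after iFTn-R4, 20.3 and 17.9 after iFTn-M4, and 12.02 and 14.7 after iFTn-MR4. The groups did not overlap and fell in the order of the 7 members above. Its log2 fold change against PBS was -2.08 ± 0.14 after iFTn-MR4 (edgeR adjusted p = 8.518e-06), -1.56 ± 0.14 after iFTn-M4 and -0.54 ± 0.13 after iFTn-R4, all called. Ccr2, the receptor of Ccl2, Ccl7 and Ccl12 on inflammatory monocytes, measured 111 and 99.3 CPM after PBS, 71.6 and 45.0 after iFTn-R4, 68.6 and 55.4 after iFTn-M4, and 53.3 and 47.8 after iFTn-MR4. All nanocage libraries lay below the PBS libraries, and those of iFTn-R4 overlapped both other nanocage groups, while both iFTn-M4 libraries lay above both iFTn-MR4 libraries. Ccr2 fell, with -1.06 ± 0.19, -0.76 ± 0.18 and -0.85 ± 0.18 after iFTn-MR4, iFTn-M4 and iFTn-R4, and its value for iFTn-MR4 against iFTn-R4 was -0.21 ± 0.19 (adjusted p = 0.454), where Ccl2 was -2.54. Ccr7, which guides cells to lymph nodes, fell after iFTn-M4 (-1.36 ± 0.47) and iFTn-MR4 (-2.25 ± 0.53). Its level after iFTn-MR4 was 0.378 and 0.594 CPM, so that the latter value is limited by depth. Ccr8, the receptor of mouse Ccl8, reached at most 0.0756 CPM in any library and was not tested.

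Of 12 other CC ligands, 6 were tested. Ccl22, a ligand of Ccr4 made by dendritic cells and macrophages, fell after iFTn-M4, iFTn-R4 and iFTn-MR4 (log2 fold changes -1.28 ± 0.41, -1.98 ± 0.43 and -2.75 ± 0.50; edgeR adjusted p = 0.0296, 0.0093 and 0.0015), from 2.09 and 2.05 CPM after PBS to 0.302 and 0.297 after iFTn-MR4. It was not called after iFTn-M4 with the length offset, where 0 of the 6 fell. The Ccl22 levels after iFTn-MR4 lay below those of Ccl3 in the same libraries, which rested on 9 and 7 reads. The size of the Ccl22 fall is therefore limited by depth. Ccl21a, which guides cells that carry Ccr7 into lymphatic vessels, rose after iFTn-M4 (0.59 ± 0.20) and iFTn-MR4 (0.64 ± 0.20), and shares reads with near-identical copies, which makes its count uncertain. Ccl11, a ligand of Ccr3, rose after iFTn-R4 against PBS (1.58 ± 0.45, adjusted p = 0.0280), from 0.758 and 1.45 CPM to 2.38 and 4.25, and fell after iFTn-MR4 against iFTn-R4 (adjusted p = 0.0457). Ccl25 did not pass in any comparison.

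Of 5 atypical receptors, which bind chemokines without signalling for migration, 1 rose and 3 fell after iFTn-M4 against PBS, 1 rose and 2 fell after iFTn-MR4, and 0 passed after iFTn-R4 by edgeR. The shares of all tested genes that rose and fell were 19.8% and 21.4%, 24.6% and 26.3%, and 13.9% and 15.4% in this order. Ackr4, a scavenger of Ccl19, Ccl21 and Ccl25, rose from 2.46 and 2.58 CPM after PBS to 7.51 and 6.55 after iFTn-M4 (log2 fold change 1.48 ± 0.23, edgeR adjusted p = 0.00093) and 4.69 and 4.60 after iFTn-MR4 (0.88 ± 0.24, adjusted p = 0.0117). Ackr2, a scavenger of inflammatory CC chemokines, fell after iFTn-M4 (-0.71 ± 0.21) and iFTn-MR4 (-0.65 ± 0.21). Ccrl2, a receptor that presents chemerin, fell in both as well (-0.54 ± 0.12 and -0.34 ± 0.12). Ackr3, a scavenger of Cxcl12, fell after iFTn-M4 (-0.27 ± 0.09). With the length offset 1 of the 5 fell after iFTn-M4 and 1 after iFTn-MR4, and 1 and 2 rose.

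Among 15 tested inducers and regulators of CC chemokine transcription, 9 fell after iFTn-M4 against PBS, 7 after iFTn-R4 and 11 after iFTn-MR4, and 0 rose by edgeR. With the length offset these counts were 7, 3 and 11, and 1 rose after iFTn-MR4. Over all tested genes 21.4%, 15.4% and 26.3% fell, and 17.6%, 7.92% and 23.8% with the offset. Irf1, an interferon-induced transcription factor, fell after iFTn-M4 (-1.37 ± 0.09), iFTn-R4 (-0.55 ± 0.09, adjusted p = 0.0025) and iFTn-MR4 (-1.28 ± 0.09), with a difference of 0.09 ± 0.09 (adjusted p = 0.676) between iFTn-MR4 and iFTn-M4. Irf5, a transcription factor of inflammatory macrophages, fell after iFTn-M4, iFTn-R4 and iFTn-MR4 (-0.60, -0.35 and -0.89). Il1b, an inflammatory cytokine, fell after iFTn-M4 (-2.04 ± 0.36, adjusted p = 0.0019) and iFTn-MR4 (-2.27 ± 0.37, adjusted p = 0.00086) and was -0.64 ± 0.32 (adjusted p = 0.160) after iFTn-R4. The transcript of Nfkb1 ranged from 94.3 to 104 CPM over all libraries and did not pass in any comparison. Other NF-kB subunits of the list were lower without the offset. Rela fell after iFTn-M4, iFTn-R4 and iFTn-MR4 against PBS (-0.27, -0.23 and -0.33), as did Relb (-0.47, -0.46 and -0.57). Nfkb2 fell after iFTn-M4 and iFTn-MR4 (-0.30 and -0.57) and did not pass after iFTn-R4 (-0.22, edgeR adjusted p = 0.0967). These NF-kB genes fall outside the naming rule and were chosen after their values were seen.

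Of 8 genes that cut or carry chemokines, 2 rose and 3 fell after iFTn-M4 against PBS, 2 rose and 0 fell after iFTn-R4 by edgeR, and 3 rose and 5 fell after iFTn-MR4. Beside these counts, 19.8% of all tested genes rose and 21.4% fell, then 13.9% and 15.4%, and 24.6% and 26.3%. Mmp2, a protease that cleaves human CCL7, rose by 1.16 ± 0.10, 0.79 ± 0.10 and 1.14 ± 0.10 on the log2 scale after iFTn-M4, iFTn-R4 and iFTn-MR4 (edgeR adjusted p = 5.377e-05, 0.0011 and 3.347e-05). Mmp9, a protease of neutrophils and macrophages, fell after iFTn-M4 (-2.44 ± 0.41) and iFTn-MR4 (-2.93 ± 0.43). The syndecans Sdc1 and Sdc4, which carry glycosaminoglycan chains, fell after iFTn-M4 (-1.03 and -0.71) and iFTn-MR4 (-1.48 and -1.10). With the length offset 1 gene in place of 3 rose after iFTn-MR4, and 1 in place of 2 after iFTn-R4.

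Markers of leukocytes moved together with the CC chemokines in part. Of 8 markers of monocytes and infiltrating macrophages, 7 fell after iFTn-M4, 5 after iFTn-R4 and 7 after iFTn-MR4 against PBS, with a median log2 fold change of -1.27, -0.68 and -1.64. With the length offset 2 in place of 5 fell after iFTn-R4. By edgeR 0 rose, and Lyz2 (0.46, -0.32 and 0.12) did not pass. Chil3 was -1.51, 0.77 and -1.59, of which the iFTn-R4 value did not pass (adjusted p = 0.127). Beside this and the leukocyte lists that follow, 21.4%, 15.4% and 26.3% of all tested genes fell and 19.8%, 13.9% and 24.6% rose. Plac8 fell in all 3 comparisons (-2.42, -0.61 and -3.05), as did Ms4a4c (-1.74, -0.75 and -2.25), the Fc receptor gene Fcgr1 (-1.03, -0.80 and -1.68) and Ly6c2 (-3.07, -1.05 and -3.72), which marks inflammatory monocytes and has a near-identical neighbour, Ly6c1, that makes its count uncertain. Their summed level, dominated by Lyz2 at 623 to 1388 CPM, was 1983 and 1357 CPM after PBS, 1742 and 1427 after iFTn-M4, 1216 and 1352 after iFTn-R4, and 1257 and 1223 after iFTn-MR4. The PBS libraries overlapped those of iFTn-M4 and lay above those of iFTn-R4 and iFTn-MR4. Of 8 neutrophil markers, 5, 2 and 6 fell in the same order and 1, Ngp, rose after iFTn-R4, with 0 in place of 2 lower after iFTn-R4 with the length offset. Ngp measured 0.0632 and 0.0661 CPM after PBS, about 1 read in each library, and 1.19 and 1.26 after iFTn-R4, so that no fold is given. The neutrophil markers had sums of 164 and 147 CPM after PBS, 149 and 118 after iFTn-R4, 72.8 and 41.8 after iFTn-M4, and 40.9 and 47.4 after iFTn-MR4. General macrophage markers summed to 1527 and 1179 CPM after PBS and between 1072 and 1414 CPM after the nanocages, with 0, 4 and 2 of 8 lower (0, 0 and 2 with the length offset) and 1, 0 and 1 higher. The higher one was Adgre1, a surface receptor of mouse macrophages (0.42 ± 0.11 after iFTn-M4 and 0.32 ± 0.11 after iFTn-MR4). The lower ones included Cd68 (-0.42 ± 0.08 after iFTn-R4 and -0.69 ± 0.08 after iFTn-MR4) and C1qa (-0.46 ± 0.10 and -0.25 ± 0.10). Markers of resident cardiac macrophages summed to 475 and 354 CPM after PBS and between 456 and 597 after the nanocages, with 0, 0 and 1 of 7 lower and 1, 1 and 1 higher by edgeR, and 0 lower and 2, 0 and 2 higher with the length offset. Mrc1, the mannose receptor, was higher in all 3 comparisons without the offset (0.73 ± 0.12, 0.53 ± 0.12 and 0.71 ± 0.12). The lower one was Timd4, after iFTn-MR4 (-0.58 ± 0.21, edgeR adjusted p = 0.0452). Ccr2 belongs to both the receptor and the monocyte list. Lyz2, Chil3, Ngp and the receptors Ccr3 and Ccr8 fall outside the naming rule and were chosen after their values were seen. The part of these cells in the CC chemokine values was not tested.

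The other marker lists differed from each other. Siglecf, the only tested eosinophil marker, fell after iFTn-MR4 against PBS (-2.26 ± 0.60, edgeR adjusted p = 0.0108) and did not pass after iFTn-M4 or iFTn-R4. Beside the counts that follow, 19.8%, 13.9% and 24.6% of all tested genes rose and 21.4%, 15.4% and 26.3% fell. Of 5 fibroblast markers 3, 3 and 4 rose after iFTn-M4, iFTn-R4 and iFTn-MR4 against PBS, and of 5 endothelial markers 3, 5 and 4 rose, with no fall in either list, and 2, 2 and 3 and then 1, 2 and 3 rose with the length offset. Of 6 cardiomyocyte markers, 2, 1 and 4 rose and 1, 4 and 1 fell, and with the offset 3, 0 and 4 rose and 1, 2 and 0 fell. Of 5 mast cell markers, Kit was the 1 that fell, after iFTn-M4 and iFTn-MR4. The rest of that list, Tpsb2, Cpa3, Cma1 and Mcpt4, did not pass against PBS by edgeR. On the log2 scale they stood at 0.60, 0.73, 0.61 and 0.42 after iFTn-M4, opposite in sign to Kit (-0.69). With iFTn-MR4 they stood at -0.47, -0.36, -0.01 and 0.62, beside -1.14 for Kit. Mcpt4 falls outside the naming rule and was chosen after its values were seen. Of 5 tested markers of T and NK cells 0 passed against PBS by edgeR. Among the lists no marker with values was at 0 in all libraries.

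**Figure D5:**
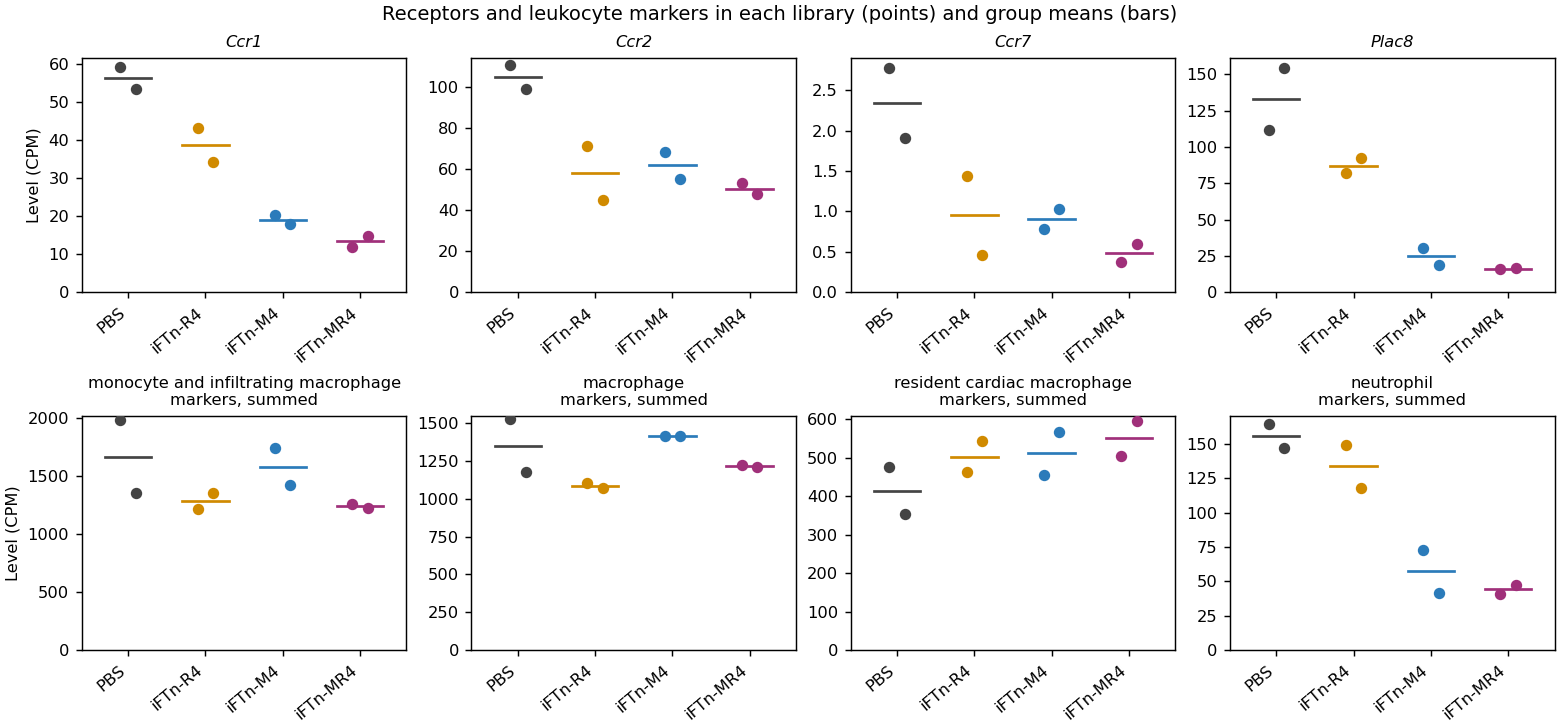
Level in CPM (vertical axis, from 0) of Ccr1, Ccr2, Ccr7 and Plac8 and of 4 summed leukocyte marker lists in each library, as points by group, with a bar at each group mean. Ccr1 runs from 59.3 and 53.4 after PBS to 12.02 and 14.7 after iFTn-MR4, whereas the summed monocyte list after PBS, 1983 and 1357, overlaps that after iFTn-M4, 1742 and 1427.

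The genes whose pattern over the 8 libraries was most like that of Ccl2 were ranked by the root mean square difference of log2 CPM, each gene centred on its own mean, among 11245 genes. Outside the family these were Plac8 (0.21), Tgtp2 (0.23), Nlrc5 (0.25) and Slfn4 (0.25). Nlrc5, a transactivator of MHC class I genes, measured 119 and 131 CPM after PBS and 17.5 and 20.8 after iFTn-MR4, and Tgtp2, an interferon-induced GTPase with a near-identical copy that makes its count uncertain, 215 and 271 and then 32.8 and 37.8. Within the family the difference from Ccl2 was 0.14 for Ccl7 and 0.31 for Ccl12, and then 0.48 for Ccl4, 0.56 for Ccl3, 0.66 for Ccl6 and 0.71 for Ccl9. It was 0.997 for Ccl5, 1.35 for Ccl24 and 1.66 for Ccl8, the member least like Ccl2 although in the same cluster. The likeness is a description over libraries that share treatment groups.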

How the data were processed

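Heart tissue mRNA, selected with oligo-dT per the labels' protocols, was sequenced on a DNA nanoball platform in 8 libraries. HISAT2 2.1.0, Bowtie2 2.2.5, RSEM 1.2.8 and GRCm38.p6 are named, without roles, in the submitters' processing notes. The authors deposited an expected count, a TPM and an FPKM value per gene and library, per the file headers, in a table for PBS (17051 genes) and another for the nanocages (17788 genes). FPKM served only to derive effective transcript length.

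Expected counts were rounded and tested with edgeR 4.0.16 (R 4.3.3): TMM scaling, filterByExpr, all 8 libraries in 1 quasi-likelihood fit, two-sided contrasts, Benjamini-Hochberg adjustment over 13953 tested genes and a threshold of 0.05. All 10 members were tested. CPM are counts over the TMM-scaled library total, ± in fold changes is the SE, and intervals are 95%. The length offset came from a 4-df spline of each library's log2 counts over effective length (log2). Alternatives were other scalings, DESeq2 1.42.0, limma 3.58.1 on log2(TPM + 1) and log2(TPM + 0.1), no low-count filter, only the groups compared, the replicate number as a block, and each library left out. In simulated counts for iFTn-M4 against PBS on 13953 genes, 97% of 100 genes changed 2-fold and 100% of 100 changed 4-fold were recovered, with 11 false calls. Only genes above a count minimum were changed there. The simulated noise followed a smooth trend with level, without a spread of each gene's own and without a length trend. This was a check of the code, and does not measure how often real changes are found in these libraries. Replicates of a group differed by more than counting noise (chi-square per degree of freedom 4.87 to 15.83).

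The members and lists were chosen with earlier results of these data known. Named genes are the 10 members, up to 4 tested genes per list with the lowest adjusted p, and the 5 genes most like Ccl2 with a mean of at least 5 CPM, and a few genes that this rule names are not reported here. The lists were other CC ligands, CC receptors, atypical receptors, inducers and regulators, chemokine-handling genes and 10 cell type marker lists.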

Additional observations from a re-analysis of the deposited data

How the results depend on the processing

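With 2 libraries per group, single calls of low members are limited by replicate spread, and counts below about 10 reads (Ccl3 in both iFTn-MR4 libraries and Ccl4 in the first of them) by depth. Leaving out 1 library at a time, the members called numbered 5 to 8 for iFTn-M4, 3 to 5 for iFTn-R4 and 7 to 9 for iFTn-MR4 against PBS, 0 to 2 for iFTn-MR4 against iFTn-M4, 5 to 9 for iFTn-MR4 against iFTn-R4 and 0 to 5 for iFTn-R4 against iFTn-M4. Over all genes the same ranges were 3560 to 6461 (5745 with all libraries), 2055 to 4065 (4096), 5059 to 7684 (7096), 2 to 603 (51), 1635 to 4204 (3801) and 60 to 1379 (827). For iFTn-MR4 against iFTn-M4, 0 members became 2 with DESeq2, 4 with only the groups compared and 1 (Ccl12) with the replicate block, and the 51 genes became 352, 714 and 271, and 18 and 21 on TPM with pseudocounts 1 and 0.1. The 4096 genes for iFTn-R4 against PBS became 2528 with only the groups compared and 1949 with the length offset, and the 827 for iFTn-R4 against iFTn-M4 became 206 with only the groups compared. The offset is a term that removes the length trend. The cause of these changes was not tested, and with fewer libraries the counts moved in both directions.

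The sign of 4 members changed. Ccl3 for iFTn-R4 against PBS became 0.22 with the length offset, 0.0625 and 0.0644 on TPM with pseudocounts 1 and 0.1, and ranged from -0.77 to 0.36 with 1 library left out. For iFTn-MR4 against iFTn-M4, Ccl5 became 0.0215 with the offset and ranged from -0.29 to 0.16 with 1 library left out, Ccl24 from -0.99 to 0.15 and Ccl8 from -0.022 to 0.53. None of these was called with either sign.

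On TPM with pseudocount 1 the median of all genes moved by 0.14, 0.20 and 0.11 on the log2 scale for iFTn-M4, iFTn-R4 and iFTn-MR4 against PBS, and the split of higher against lower genes went from 2764 and 2981 to 4154 and 1733, from 1945 and 2151 to 4503 and 660, and from 3430 and 3666 to 4336 and 2575. For iFTn-MR4 against iFTn-R4 it went from 1758 and 2043 to 958 and 2818, and for iFTn-R4 against iFTn-M4 from 478 and 349 to 560 and 157. With library size alone the splits were 2490 and 1575 for iFTn-R4 against PBS, 1148 and 2850 for iFTn-MR4 against iFTn-R4 and 629 and 254 for iFTn-R4 against iFTn-M4. Whether the replicate numbers pair the libraries is not given in the sources used here. The correlation of same-numbered deviations ran from -0.014 to 0.153, which cannot exclude pairing that touches some genes. With the replicate block, 7, 5, 8, 1, 9 and 5 members passed in the 6 comparisons, against 7, 4, 8, 0, 9 and 4 without it. The block added Ccl2 for iFTn-R4 against PBS (adjusted p = 0.0306) and Ccl6 for iFTn-R4 against iFTn-M4 (adjusted p = 0.0165).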
